A study of Mus musculus with 9 samples.

Results

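Osteoblast regulators and mineralisation genes were followed in polyadenylated RNA of mouse tibiae. The set has 7 members, Bglap, Ibsp, Alpl, Sp7, Runx2, Pth1r and Dlx5, taken by symbol from the 22183 genes of the deposited table, and each matched 1 row. Of the 9 libraries, 3 came from tibiae given titanium particles and I-OG (the Ti+I-OG group), 3 from tibiae given titanium particles (Ti) and 3 from untreated tibiae (naive). I-OG is an injectable hydrogel of natural polymers that carries irisin, a hormone released by muscle, and the particles imitate the wear debris that goes with aseptic loosening of implants. Hydrogel treatment lasted 5 weeks, and the labels give no time for the other groups. Strain, sex, age and genotype were not given in the sources used here. There was no group with the hydrogel alone or with a procedure but no particles, so irisin cannot be told apart from its carrier, nor the particles from their delivery. Whether replicates were separate animals is not stated, so the p-values rest on a spread between libraries that could be technical.

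Osteoblasts arise from mesenchymal precursors under a chain of transcription factors. The homeodomain protein Dlx5 and the runt domain protein Runx2 act early, and the zinc finger protein Sp7, or osterix, acts after Runx2. Committed cells carry Pth1r, the receptor for parathyroid hormone and parathyroid hormone-related protein. They then make the mineralising matrix, in which Alpl (tissue-nonspecific alkaline phosphatase) removes the mineral inhibitor pyrophosphate, Ibsp (bone sialoprotein) binds collagen and mineral, and Bglap (osteocalcin) is a late, calcium-binding product. Hypertrophic chondrocytes of the growth plate also express several of these genes, among them Runx2, Alpl, Ibsp and Pth1r.

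Total counts per library lay between 16256081 and 24766502, at which 3 counts correspond to 0.114 to 0.206 CPM, the count scaled to library size. The α- and β-globin genes took 15.1 to 15.9% of counts in Ti+I-OG, 6.68 to 9.98% in Ti and 2.95 to 9.47% in naive libraries. Bone matrix genes were expressed in every library. The 18 other than the members summed to 8524 to 10257 CPM in Ti+I-OG, 12526 to 13521 CPM in Ti and 2607 to 6175 CPM in naive. Summed tendon and fibroblast markers were also lowest in naive libraries, and how much of the matrix sum comes from bone was not tested. The lowest of the bone matrix sums belonged to naive replicate 3, which stood apart. It held 12.4 CPM of Bglap, against a mean of 152 CPM in the other naive libraries, a 12.3-fold difference. For Sp7 and Pth1r the same comparison gave 2.05-fold and 2.06-fold, and for Alpl, Dlx5 and Ibsp 1.69-fold, 1.81-fold and 1.45-fold. Runx2 did not share this drop, at 41.0 CPM there and 37.7 CPM in the other naive libraries. Summed osteocyte and osteoclast markers did not share it either, at 597 and 3509 CPM there, the highest of the naive libraries. Single osteocyte markers differed from the sum. Phex was at 12.7 CPM there against a mean of 29.1 CPM in the other naive libraries, and Dmp1 at 50.3 against 48.9 CPM. Counts of members and list genes that passed against naive are therefore also given without naive replicate 3.

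Levels between genes were compared per length, as FPKM, which scales fragments to transcript length and library size. In Ti+I-OG libraries Bglap averaged 449 ± 91.2 FPKM and Ibsp 179 ± 24.0 FPKM, followed by Pth1r at 18.7 ± 5.34, Alpl at 17.5 ± 2.99, Runx2 at 5.96 ± 1.02, Sp7 at 5.96 ± 0.489 and Dlx5 at 3.64 ± 0.530 FPKM (SD, n = 3). In Ti libraries the order was Bglap (747 ± 84.3 FPKM), Ibsp (294 ± 59.2), Alpl (32.6 ± 2.68), Pth1r (28.5 ± 7.57), Sp7 (8.34 ± 1.44), Runx2 (7.25 ± 0.673) and Dlx5 (5.13 ± 1.64 FPKM). Naive libraries gave Bglap 253 ± 193, Ibsp 135 ± 26.0, Alpl 15.8 ± 4.71, Pth1r 13.6 ± 4.78, Runx2 9.16 ± 1.51, Sp7 4.24 ± 1.42 and Dlx5 2.86 ± 0.824 FPKM. The 2 matrix proteins were thus the most abundant of the 7 in each group and Dlx5 the least. Alpl and Pth1r overlapped in all groups, as did Runx2 and Sp7 in the Ti+I-OG and Ti groups, Dlx5 with Runx2 in Ti, Pth1r with Runx2 in naive, Sp7 with Dlx5 in naive, and Bglap with Ibsp in naive.

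**Figure D1:**
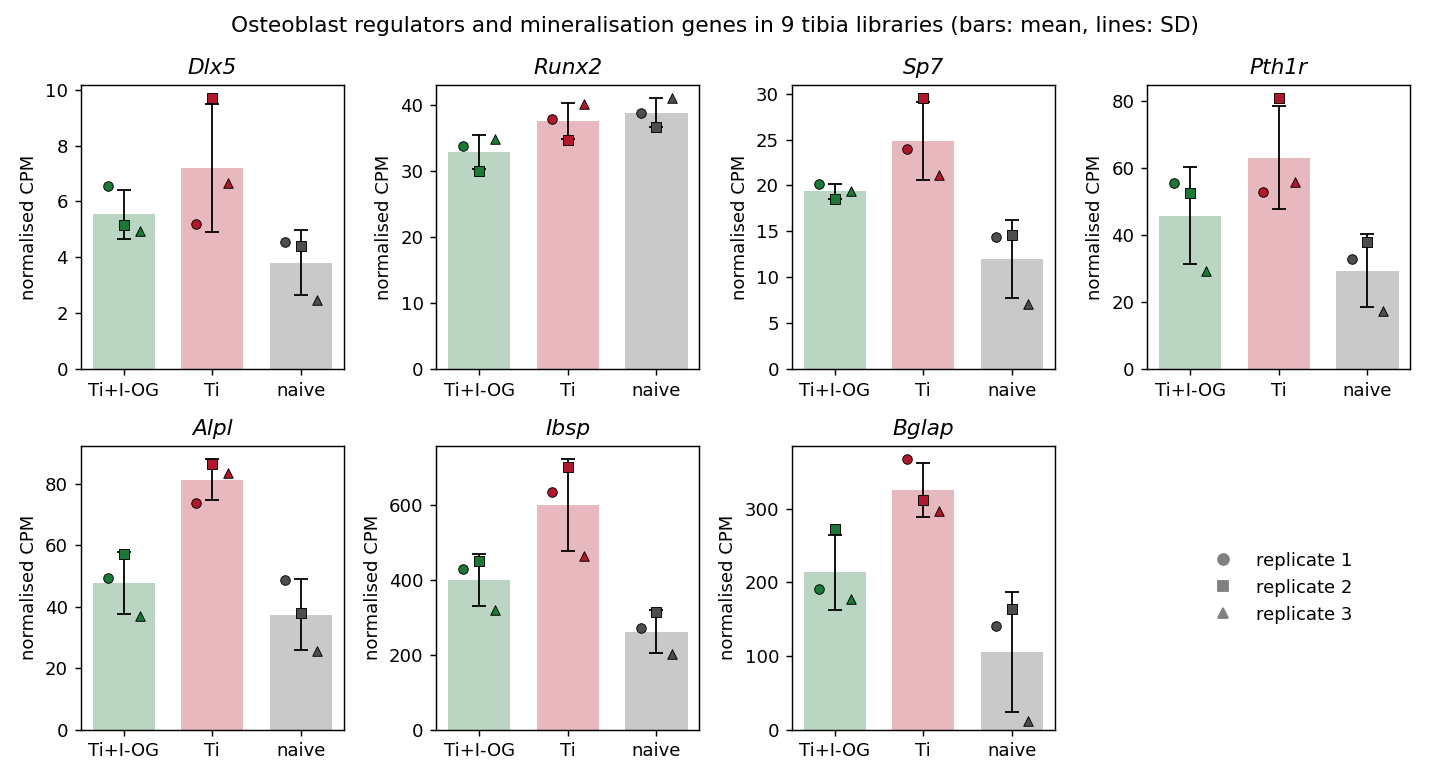
Normalised CPM (y axis) of the 7 genes in the Ti+I-OG, Ti and naive groups; bars are means of 3 libraries, lines SD and points single libraries. The Ti mean is the highest for every gene but Runx2, whose means lie between 32.8 and 38.8 CPM in the 3 groups, and naive replicate 3 (triangle) is the lowest library for every gene but Runx2.

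Dlx5 (ENSMUSG00000029755), a homeodomain regulator of bone and cartilage, was the weakest of the 7. Normalised counts were 6.54, 5.15 and 4.93 CPM in Ti+I-OG replicates 1 to 3, 5.19, 9.69 and 6.66 CPM in Ti replicates and 4.56, 4.39 and 2.47 CPM in naive replicates. Each Ti and Ti+I-OG library lay above each naive one, while Ti+I-OG and Ti overlapped, with Ti replicate 2 well above the rest. Sp7 (ENSMUSG00000060284), without which mouse precursors do not become osteoblasts, was at 20.1, 18.5 and 19.4 CPM in Ti+I-OG, 24.0, 29.5 and 21.2 CPM in Ti, and 14.4, 14.6 and 7.08 CPM in naive libraries. None of the 3 groups overlapped for Sp7, and the Ti+I-OG libraries differed little from each other.

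Runx2 (ENSMUSG00000039153), the runt domain factor at the root of the lineage, had another pattern than the other 6. It was at 33.8, 29.9 and 34.8 CPM in Ti+I-OG, 37.9, 34.7 and 40.1 CPM in Ti, and 38.8, 36.7 and 41.0 CPM in naive libraries. Ti and naive overlapped almost fully, and each Ti+I-OG library lay below each naive one. The transcript length that the deposited table implies for Runx2, the ratio of count to FPKM, ranged from 4828 to 5348 bases in Ti+I-OG, from 5139 to 5338 bases in Ti and from 4223 to 5004 bases in naive libraries. FPKM values of Runx2 therefore spread more between groups than CPM values, and whether isoform use or the estimate itself differs was not tested. Runx2 also overlaps the antisense gene Runx2os1 in the GENCODE mouse annotation, and the library kit does not mark strand.

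The 300-base promoter windows of RefSeq (build GRCm38.p6) held 5 of the 7 genes; Sp7 and Dlx5 had no entry. The windows of Bglap and Ibsp, the 2 most abundant genes, and that of Runx2, the gene that moved differently, are shown because Runx2 and Dlx5 are factors with known core motifs. The Runx motif ACCACA and the homeodomain motif TAATTA or TAATTG were searched on both strands, and in these windows no match overlapped another. Capitals mark the Runx motif in Bglap (chr3:88384417-88384716, minus strand) and Runx2 (chr17:44814578-44814877, minus strand), and the homeodomain motif, here read on the opposite strand, in Ibsp (chr5:104299037-104299336, plus strand).
Bglap: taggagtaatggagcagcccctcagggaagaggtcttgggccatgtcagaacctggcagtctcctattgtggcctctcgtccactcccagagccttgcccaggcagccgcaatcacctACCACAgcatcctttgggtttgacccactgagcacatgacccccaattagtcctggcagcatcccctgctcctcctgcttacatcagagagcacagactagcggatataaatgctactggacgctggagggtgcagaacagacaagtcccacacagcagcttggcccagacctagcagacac
Runx2: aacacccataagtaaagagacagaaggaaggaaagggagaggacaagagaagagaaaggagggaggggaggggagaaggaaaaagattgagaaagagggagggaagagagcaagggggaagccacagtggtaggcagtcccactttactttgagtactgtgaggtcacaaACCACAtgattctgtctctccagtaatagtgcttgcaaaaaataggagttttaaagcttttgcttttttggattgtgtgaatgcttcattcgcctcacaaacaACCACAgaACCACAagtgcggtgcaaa
Ibsp: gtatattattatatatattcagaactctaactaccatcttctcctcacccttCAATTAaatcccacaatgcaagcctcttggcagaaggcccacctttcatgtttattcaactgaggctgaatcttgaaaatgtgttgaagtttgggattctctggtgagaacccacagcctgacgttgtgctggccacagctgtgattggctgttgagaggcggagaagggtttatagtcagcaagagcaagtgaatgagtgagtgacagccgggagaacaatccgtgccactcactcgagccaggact

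Bglap held 1 Runx motif and Runx2 held 3, while Ibsp, Alpl and Pth1r held none in these windows. A homeodomain motif occurred once each in the Bglap and Ibsp windows and in 1 of the 3 Pth1r windows. Among all 32851 windows of the table, 16.8% held the Runx motif and 12.4% the homeodomain motif. The letters TATAAA of a TATA box, on either strand, were present in the windows of Bglap and Ibsp and in 1 of the 2 Alpl windows, against 13.6% of all windows. In Ibsp and Alpl they were read on the opposite strand. In Alpl they lay nearer the upstream end of the window than in Bglap and Ibsp. A GC box (GGGCGG) occurred 3 times in the other Alpl window and in 2 of the 3 Pth1r windows, against 35.7% of all. These matches describe letters and no binding was measured.

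Pth1r (ENSMUSG00000032492), the G protein-coupled receptor of parathyroid hormone on osteoblasts, osteocytes and growth plate chondrocytes, was at 55.4, 52.6 and 29.1 CPM in Ti+I-OG libraries. Its level was 52.7, 80.7 and 55.6 CPM in Ti and 32.8, 38.0 and 17.2 CPM in naive libraries. Ti lay above naive without overlap, and Ti+I-OG spanned the gap, with replicate 3 among the naive values. Exons of Pth1r overlap those of Myl3, a myosin light chain of slow and cardiac muscle, on the other strand, so their reads cannot be told apart there. Myl3, looked up for this overlap, was at 17.3, 34.5 and 22.3 CPM in Ti+I-OG, 3.16, 4.08 and 2.25 CPM in Ti and 0.570, 1.68 and 0.712 CPM in naive libraries. It was closest to the Pth1r level in the Ti+I-OG libraries, and its part in the Pth1r values was not tested.

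Alpl (ENSMUSG00000028766), the phosphatase that frees phosphate for mineral, was at 49.2, 57.1 and 37.1 CPM in Ti+I-OG, 73.8, 86.6 and 83.7 CPM in Ti, and 48.8, 37.9 and 25.7 CPM in naive libraries. All 3 Ti libraries stood above the other 6, and Ti+I-OG overlapped naive. Ibsp (ENSMUSG00000029306), the acidic matrix protein, was at 429, 452 and 321 CPM in Ti+I-OG, 637, 702 and 465 CPM in Ti and 271, 315 and 201 CPM in naive libraries. No 2 groups overlapped for Ibsp, although the lowest Ti+I-OG library and the highest naive one were only 321 and 315 CPM.

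Bglap (ENSMUSG00000074483) was at 192, 273 and 178 CPM in Ti+I-OG, 368, 311 and 298 CPM in Ti and 141, 164 and 12.4 CPM in naive libraries. The groups did not overlap, and the naive spread came mainly from replicate 3. Bglap lies beside near-identical copies on chromosome 3, Bglap2 and Bglap3, and its count depends on how the authors' software shared reads among them. The 3 coding sequences are each 285 bases long. Bglap and Bglap2 are 98.6% identical with 4 differing bases, and 81.4% of the 50-base windows of Bglap occur unchanged in Bglap2, against 13.6% in Bglap3. The first 120 coding bases of each copy (GENCODE release M21) are shown to make this likeness visible, with capitals at the 5 positions where the copies differ.
Bglap: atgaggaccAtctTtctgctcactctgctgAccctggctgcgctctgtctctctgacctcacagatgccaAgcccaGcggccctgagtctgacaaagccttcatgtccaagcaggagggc
Bglap2: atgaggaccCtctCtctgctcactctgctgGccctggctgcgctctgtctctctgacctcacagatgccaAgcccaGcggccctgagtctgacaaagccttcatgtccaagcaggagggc
Bglap3: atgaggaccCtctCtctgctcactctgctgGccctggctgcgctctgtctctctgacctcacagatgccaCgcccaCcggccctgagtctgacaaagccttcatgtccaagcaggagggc

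Bglap2 averaged 354 CPM in Ti+I-OG, 460 CPM in Ti and 162 CPM in naive libraries, and Bglap3 averaged 1.19 CPM in Ti+I-OG, 1.61 CPM in Ti and 0.531 CPM in naive. Naive replicate 3 was low for both, with 21.7 CPM of Bglap2 against 232 CPM in the other naive libraries. With the 3 copies summed to 1 row, the log2 fold change of Ti over naive was 1.55, against 1.62 for Bglap alone. As in any bulk sample, fewer cells of a type and less RNA per cell cannot be told apart for any of these genes.

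The Ti against naive comparison asked what titanium particles, with their delivery, did to the lineage's regulators and its mineral genes. Ibsp, Alpl and Sp7 rose in Ti tibiae, each to about double its naive level. Ibsp averaged 601 ± 122 CPM in Ti and 263 ± 57.2 CPM in naive, Alpl 81.4 ± 6.70 CPM in Ti and 37.4 ± 11.5 CPM in naive, and Sp7 24.9 ± 4.23 CPM in Ti and 12.0 ± 4.27 CPM in naive (SD, n = 3 each). Pth1r, Dlx5 and Bglap were also higher in each Ti library than in any naive one, but did not pass the test. Runx2 had nearly the same level in both groups.

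By edgeR's quasi-likelihood test, with Benjamini-Hochberg adjustment over 14211 genes, Ibsp was the clearest, with a log2 fold change of 1.20 and an SE of 0.213 (adjusted p = 0.0133). Alpl rose by 1.12 (SE 0.220, adjusted p = 0.0183) and Sp7 by 1.05 (SE 0.243, adjusted p = 0.0304) in the same edgeR fit. So 3 of 7 genes passed as higher, where 4.05% of all genes tested did, and none passed as lower, where 2.39% did (6.43% in either direction). Pth1r had a log2 fold change of 1.10 (adjusted p = 0.0527), Dlx5 of 0.92 (adjusted p = 0.0813) and Bglap of 1.62, with the widest 95% interval of the 7, 0.29 to 2.96 (edgeR, adjusted p = 0.123). For Runx2 the value was -0.05, with an interval from -0.32 to 0.22 that leaves out the size of change seen for Ibsp, Alpl and Sp7. The groups did not overlap, with Ti higher, for 6 of 7 genes and for 14.3% of all genes. The median over the 7 was 1.10, against 0.01 over all genes.

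Without naive replicate 3, Bglap passed (log2 fold change 1.07, adjusted p = 0.0282 by edgeR), as did Ibsp (1.02, adjusted p = 0.0412) and Alpl (0.89, adjusted p = 0.0434). Sp7 then missed the threshold (0.76, adjusted p = 0.0560), and 1.04% of all genes passed as higher and 0.438% as lower. No member passed without Ti replicate 1 or without Ti replicate 2, where edgeR's adjusted p for Ibsp was 0.0703 and 0.0650, and the count over all genes went down to 100 and 105. Sp7 also missed narrowly without Ti+I-OG replicate 1 or 2, which enter the shared estimate of spread (edgeR, adjusted p = 0.0533 and 0.0521). Pth1r passed without naive replicate 2, Ti replicate 3 or Ti+I-OG replicate 3 (edgeR, adjusted p = 0.0372, 0.0446 and 0.0425). DESeq2 called 5 of the 7 genes, adding Pth1r and Dlx5, where it called 7.4% of all genes higher, and limma-voom called 4, adding Pth1r, where it called 3.91% higher.

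**Figure D2:**
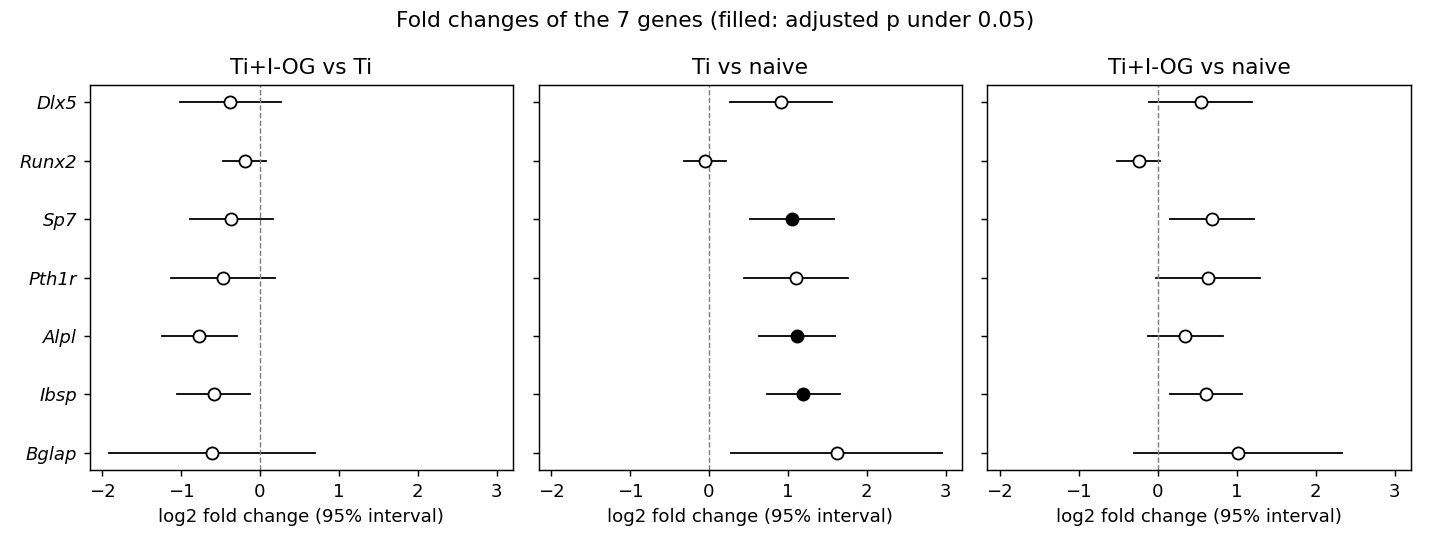
Log2 fold change (x axis) of each gene with its 95% interval from edgeR in the 3 comparisons; filled circles have an adjusted p under 0.05. Filled circles occur only for Ti vs naive (Sp7 1.05, Alpl 1.12 and Ibsp 1.20), all 7 circles lie left of 0 for Ti+I-OG vs Ti, and Bglap has the widest interval in each panel.

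The Ti+I-OG against Ti comparison asked whether the irisin hydrogel altered these genes in particle-treated bone. None of the 7 passed the test. All 7 had lower means in Ti+I-OG, and the mineral and matrix genes differed most. Alpl averaged 47.8 ± 10.1 CPM in Ti+I-OG and 81.4 ± 6.70 CPM in Ti, Ibsp 401 ± 69.8 CPM in Ti+I-OG and 601 ± 122 CPM in Ti, and Bglap 214 ± 51.2 CPM in Ti+I-OG and 326 ± 37.0 CPM in Ti (SD, n = 3 each). Runx2 differed least, at 32.8 ± 2.55 CPM in Ti+I-OG and 37.6 ± 2.71 CPM in Ti.

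Alpl had a log2 fold change of -0.77 with a 95% interval of -1.25 to -0.29 (edgeR, unadjusted p = 0.00443, adjusted p = 0.628). Ibsp had -0.58 with an interval of -1.04 to -0.12 (edgeR, unadjusted p = 0.0170, adjusted p = 0.628). These intervals are not adjusted for the number of genes, and both leave out 0. Bglap stood at -0.61 (interval -1.91 to 0.70), Pth1r at -0.46, Dlx5 at -0.37, Sp7 at -0.36 and Runx2 at -0.19, and edgeR's adjusted p for these 5 ran from 0.692 to 0.804. At an unadjusted p under 0.05 edgeR counted 2 of 7, and 7.84% of all genes. DESeq2 and limma-voom called 0 of 7 after adjustment, as against 0.113% and 0.0422% of all genes. Over all genes edgeR called 0.0422%, all of them higher in Ti+I-OG, so 0 of 7 is near the background. Groups did not overlap, with Ti+I-OG lower, for Bglap, Ibsp, Alpl and Sp7, or 4 of 7, against 6.71% of all genes. The median over the 7 was -0.46, against 0.00 over all genes. A p that misses the threshold at 3 libraries a group does not show that the groups are alike.

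The Ti+I-OG against naive comparison set hydrogel-treated bone beside untreated bone. Again none of the 7 passed, and 6 of the 7 had higher means in Ti+I-OG, in each case below the Ti mean. Runx2 was the exception, at 32.8 ± 2.55 CPM in Ti+I-OG and 38.8 ± 2.16 CPM in naive (SD, n = 3 each). This comparison shares its libraries with the other comparisons, so an intermediate position is not independent of them.

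The nearest to the threshold were Ibsp, with a log2 fold change of 0.61 (interval 0.15 to 1.07, adjusted p = 0.0830 by edgeR), and Sp7, with 0.69 (interval 0.15 to 1.22, adjusted p = 0.0895 by edgeR). Bglap was at 1.02, Pth1r at 0.64, Dlx5 at 0.54 and Alpl at 0.35, while Runx2 was at -0.24 (interval -0.51 to 0.03). Of all genes, 3.84% passed as higher and 4.43% as lower (8.26% in either direction). At an unadjusted p under 0.05 edgeR counted 2 of 7, a share near the 29.8% of all genes. DESeq2 called 1 of 7, Ibsp (adjusted p = 0.0419), where 8.22% of all genes were called higher, and limma-voom called 0, where 3.23% were. On log2(FPKM + 1) and log2(FPKM + 0.1) Runx2 was nearest the threshold, as lower (-0.54 and -0.61, adjusted p = 0.0563 and 0.0521 by limma-trend). The median of all genes was -0.10 and -0.16 in these FPKM fits, and the differing implied lengths of Runx2 enter them. Without naive replicate 3 the log2 fold changes shrank to 0.42 for Ibsp, 0.39 for Sp7, 0.46 for Bglap, 0.34 for Pth1r, 0.28 for Dlx5 and 0.11 for Alpl, and none passed, with 0.577% of all genes called higher and 0.723% lower. Without naive replicate 2 Ibsp passed (0.76, adjusted p = 0.0482 by edgeR). Groups did not overlap, with Ti+I-OG higher, for 4 of 7 genes (18.7% of all genes), namely Bglap, Ibsp, Sp7 and Dlx5, and with Ti+I-OG lower for Runx2 (16.9% of all genes). Libraries of these groups that share a replicate number deviated together (r of 0.197, 0.115 and 0.273 for numbers 1 to 3). No label gives this pairing, and blocked values stand here because of these correlations. With the number as a replicate block, Ibsp (0.62), Sp7 (0.74) and Pth1r (0.66) passed as higher (edgeR, adjusted p = 0.0045, 0.0233 and 0.0241), 3 of 7, where 12.1% of all genes did.

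Tested for any difference among the 3 groups at once, Ibsp and Alpl changed (edgeR, adjusted p = 0.0267 and 0.0315) and Sp7 came close (adjusted p = 0.0547), where 5.77% of all genes passed. Leaving out single libraries moved these calls: Ibsp missed without naive replicate 1 or 3, without Ti replicate 1 or 2 and without Ti+I-OG replicate 1 or 2 (adjusted p = 0.0564 to 0.0878, edgeR). Alpl missed without Ti replicate 1 or 2 and without Ti+I-OG replicate 1 or 2 (edgeR, adjusted p = 0.0558 to 0.0845). Sp7 passed without naive replicate 2 or Ti replicate 3 (edgeR, adjusted p = 0.0451 and 0.0416), and Bglap passed without naive replicate 3 (edgeR, adjusted p = 0.0468).

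**Figure D3:**
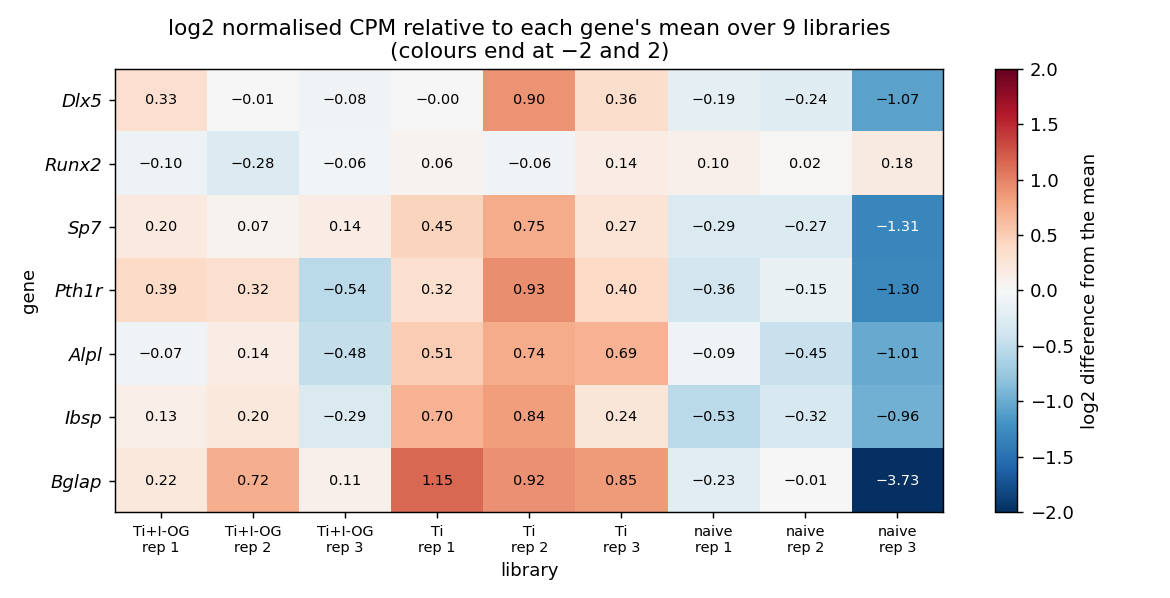
Difference of log2 normalised CPM from each gene's mean over 9 libraries (colour and printed value) for the 7 genes (rows) in the Ti+I-OG, Ti and naive libraries (columns). Apart from Runx2, the rows are above their mean in the Ti replicates, save Dlx5 in Ti replicate 1, and lowest in naive replicate 3, where Bglap reaches -3.73 and Runx2 0.18.

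The 6 genes other than Runx2 moved together from library to library. Over the 9 libraries, the Pearson r of log2 CPM between pairs of them ran from 0.817 to 0.934 (15 pairs), while r of Runx2 with each of the 6 ran from -0.461 to -0.167. Without naive replicate 3 the ranges over 8 libraries were 0.543 to 0.927 among the 6 and -0.192 to 0.196 with Runx2. These are descriptions over libraries that share group, depth and bone content. Relative to Runx2, a ratio of FPKM values that was added after the levels had been seen, each of the 6 was higher in every Ti library than in any naive one, as were 19.5% of all genes. Runx2 was taken as the denominator after it was seen not to rise, which helps to fix this direction. Differences in mean log2 ratio ran from 1.17 for Dlx5 to 2.55 for Bglap, and the exact two-sided permutation test gave p = 0.1, the smallest value that 3 against 3 allows. Without naive replicate 3 these differences ran from 0.79 for Dlx5 to 1.25 for Bglap. Between Ti+I-OG and naive the ratios did not overlap for Bglap, Ibsp, Sp7 and Dlx5, with Ti+I-OG higher, and overlapped for Alpl and Pth1r. Runx2 itself was lower in each Ti+I-OG library than in any naive one, which helps to fix this direction too. The transcript lengths implied for Runx2, which differ between libraries, enter these ratios. Ti+I-OG and Ti overlapped for 5 of these ratios. Alpl was the exception, with a log2 ratio of 1.55 ± 0.497 in Ti+I-OG and 2.17 ± 0.205 in Ti (difference -0.62, exact permutation p = 0.1). For the ratios that involve Ti+I-OG, the share of all genes without overlap was not computed.

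Against Col1a1, the main collagen gene of bone, Runx2 was the gene whose groups did not overlap. The mean log2 ratio of Runx2 to Col1a1 was -5.19 ± 0.538 in Ti+I-OG, -5.59 ± 0.463 in Ti and -3.89 ± 0.729 in naive libraries (FPKM, SD, n = 3 each). Runx2 was lower relative to Col1a1 in each Ti and each Ti+I-OG library than in any naive one (exact permutation p = 0.1 for each, 0.933 after Benjamini-Hochberg adjustment over 21 ratios). Without naive replicate 3 the differences for Runx2 were -1.28 in Ti over naive and -0.88 in Ti+I-OG over naive. The differing implied lengths of Runx2 enter these ratios as well. For the other 6 genes the groups overlapped in each comparison, with differences between -0.53 and 0.85, the highest being Bglap in Ti over naive, which was -0.03 without naive replicate 3. Col1a1 itself rose in Ti over naive by a log2 fold change of 1.46 (edgeR, adjusted p = 0.0417). A gene that keeps its level falls relative to a rising denominator, which helps to fix the direction seen for Runx2. The share of all genes whose ratio to Col1a1 separates the groups was not computed.

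**Figure D4:**
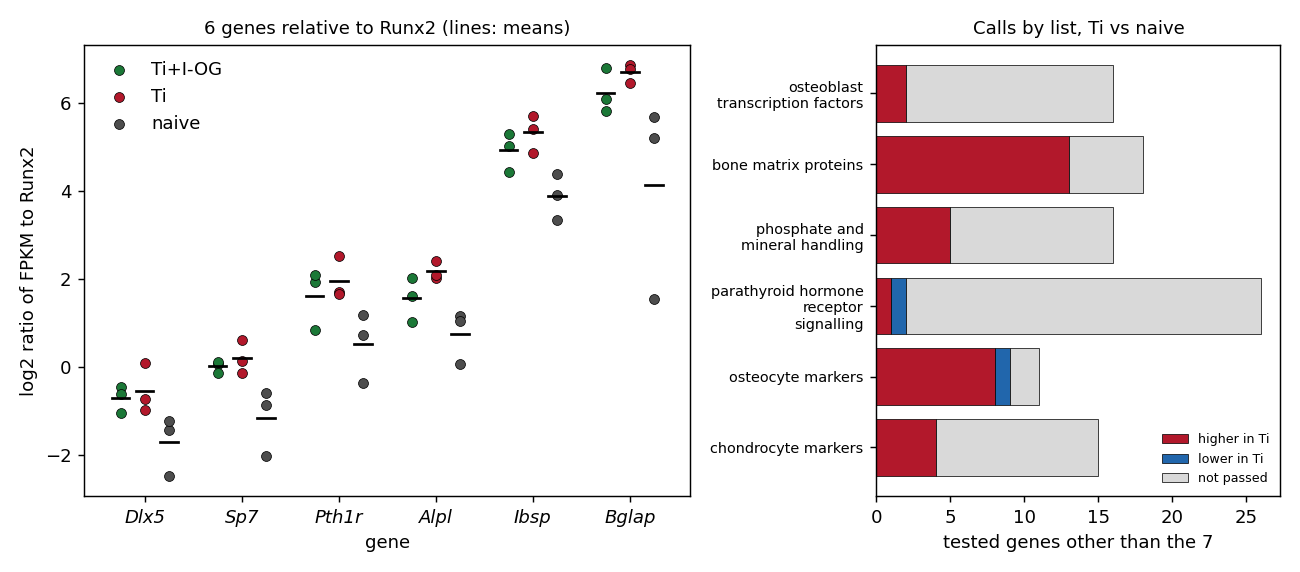
Left, log2 ratio of FPKM to Runx2 (y axis) for 6 genes in single Ti+I-OG, Ti and naive libraries, with group means as lines; right, number of tested genes other than the 7 in each list (x axis) that were higher, lower or not passed in Ti vs naive. Ti points lie above naive points for all 6 genes, and 13 of 18 bone matrix genes are higher, against 2 of 16 osteoblast transcription factors and 1 of 26 parathyroid hormone receptor signalling genes. Over all genes tested, 4.05% were higher in Ti vs naive.

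Among other osteoblast transcription factors few passed the test, though most leaned the same way. In Ti over naive 2 of the 16 tested passed as higher, where 4.05% of all genes did. They included Twist1, a basic helix-loop-helix factor of mesenchyme (log2 fold change 1.61, adjusted p = 0.0274 by edgeR). None passed as lower, 14 of 16 had positive values, and the median was 0.71, against 0.01 over all genes. Without naive replicate 3 none passed. In Ti+I-OG over Ti none of the 16 passed, only 1 had a positive value, and the median was -0.41, against 0.00 over all genes. Cbfb, the partner subunit of Runx2, was at -0.38 there (adjusted p = 0.628 by edgeR). In Ti+I-OG over naive none passed either, with or without naive replicate 3, and Twist1 (1.16) and Fosl2 (-0.49), an AP-1 subunit, had the smallest p (edgeR, adjusted p = 0.0676 and 0.111). With the replicate block 1 of 16 passed there as higher, Twist1, where 12.1% of all genes did, so this count is not above the background.

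Of the bone matrix genes most rose with particles, where 4.05% of all genes rose in Ti over naive (1.04% without naive replicate 3). In Ti over naive 13 of 18 rose and none fell, with a median of 1.52, and 11 passed without naive replicate 3. They included Tnn, encoding tenascin-W (log2 fold change 2.65, adjusted p = 0.00166), Ogn, encoding osteoglycin (2.08, adjusted p = 0.00623), Postn, encoding periostin (1.62, adjusted p = 0.00798), and Bmp3, a negative regulator of bone density in mice (1.27, adjusted p = 0.0131; edgeR). In Ti+I-OG over Ti none of the 18 passed, and all 18 had negative values with a median of -0.48. The smallest p belonged to the proteoglycan genes Bgn (-0.37) and Omd (-1.04), both with an adjusted p of 0.630 by edgeR. In Ti+I-OG over naive Tnn (2.58), Postn (1.50), Bmp3 (1.16) and Ogn (1.49) rose, or 4 of 18, and 4 passed without naive replicate 3. The replicate block gave 10 of 18. Over all genes 3.84% rose there, 0.577% without naive replicate 3 and 12.1% with the block.

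Of 16 other phosphate and mineral genes, 5 rose in Ti over naive and none fell (median 0.72), and 3 passed without naive replicate 3. Over all genes 4.05% and 1.04% rose in these fits. Dmp1 and Mepe, acidic matrix phosphoproteins of osteocytes, rose by 1.09 and 1.65 (edgeR, adjusted p = 0.00213 and 0.00325). Phex, the endopeptidase lost in X-linked hypophosphataemia, rose by 1.52 (adjusted p = 0.0167), and Mmp13, a collagenase of osteoblasts and hypertrophic chondrocytes, by 1.27 (adjusted p = 0.0225, edgeR). None passed in Ti+I-OG over Ti, where Dmp1 was at -0.40 and the exchanger gene Slc8a3 at -0.66 (edgeR, adjusted p = 0.628 for each). Dmp1 (0.69) and Mepe (1.10) rose in Ti+I-OG over naive, 2 of 16, against 1 without naive replicate 3, and 6 of 16 rose with the replicate block. The shares of all genes that rose were 3.84%, 0.577% and 12.1% in turn.

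Of the genes that act with or after Pth1r few passed. In Ti over naive 1 of 26 rose, Sost, the osteocyte Wnt inhibitor that parathyroid hormone represses (1.32, adjusted p = 0.0113), and 1 fell, Sik2, a salt-inducible kinase inhibited through the receptor (-0.81, adjusted p = 0.0345; edgeR). Over all genes 4.05% rose and 2.39% fell in this comparison, so these counts are near the background. The median over the 26 was 0.01, as over all genes, and Sik2, whose exons overlap Ppp2r1b, missed without naive replicate 3. None passed in Ti+I-OG over Ti, where Pde4d (0.52) and Creb1 (-0.31) had the smallest p (edgeR, adjusted p = 0.628 and 0.630). Sost rose in Ti+I-OG over naive (1.06, adjusted p = 0.0247 by edgeR), 1 of 26, where 3.84% of all genes rose. It did not pass without naive replicate 3. The replicate block gave 5 higher and 6 lower, where 12.1% of all genes were higher and 1730 of 14211 lower. Pth2r, the second receptor of this family, had no count in any library.

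Markers of other cells moved beside the 7 genes, and their part in the results was not tested. The 16 chondrocyte markers summed to 307 to 972 CPM in Ti+I-OG, 1317 to 1635 CPM in Ti and 326 to 623 CPM in naive libraries. Of 15 tested, 4 rose in Ti over naive (Comp, Col2a1, Col11a1 and Sox9, log2 fold changes 2.07, 1.93, 1.94 and 1.83), none passed in Ti+I-OG over Ti, where all 15 were negative with a median of -1.20, and Comp passed in Ti+I-OG over naive. When naive replicate 3 was left out, 2 chondrocyte markers passed in Ti over naive and none in Ti+I-OG over naive. Over all genes 4.05% rose in Ti over naive and 3.84% in Ti+I-OG over naive, or 1.04% and 0.577% without that library. No chondrocyte marker was at 0 throughout. Col10a1, the collagen of hypertrophic chondrocytes, was at 86.2, 164 and 13.3 CPM in Ti+I-OG, 234, 257 and 160 CPM in Ti and 123, 15.1 and 12.7 CPM in naive libraries. In naive replicates 1 and 2, where Col10a1 was 123 and 15.1 CPM, Ibsp was 271 and 315 CPM, Pth1r 32.8 and 38.0 CPM and Alpl 48.8 and 37.9 CPM. Runx2 was 38.8 and 36.7 CPM in these libraries. Alpl and Runx2 were lower in replicate 2 than in replicate 1, while Ibsp and Pth1r were higher. Naive replicate 3, with Col10a1 close to replicate 2, had Ibsp at 201, Pth1r at 17.2, Alpl at 25.7 and Runx2 at 41.0 CPM. These are single libraries, and whether the members follow Col10a1 was not tested. In Ti+I-OG replicate 3, the lowest of its group for Col10a1, Pth1r, Alpl and Ibsp were also the lowest of their group. Runx2 was the highest of its group there, at 34.8 CPM against 33.8 and 29.9 CPM in replicates 1 and 2.

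Osteocyte markers, from cells that descend from osteoblasts, rose for 8 of 11 genes in Ti over naive, with Fgf23 the 1 that fell (-2.61). Without naive replicate 3, 6 rose and none fell. Over all genes 4.05% rose and 2.39% fell in Ti over naive, and 1.04% rose and 0.438% fell without that library. The osteocyte list summed to 591 to 694 CPM in Ti+I-OG, 759 to 835 CPM in Ti and 553 to 597 CPM in naive libraries. For osteoclasts 6 of 16 markers rose in Ti over naive (5 without naive replicate 3), led by Ctsk (1.62), and the sums were 4331 to 4887 CPM in Ti+I-OG, 4220 to 5091 CPM in Ti and 3101 to 3509 CPM in naive. The osteoclast sums of naive libraries thus lay below those of the other groups. The osteocyte sums of naive lay below those of Ti but overlapped those of Ti+I-OG.

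Tendon and fibroblast markers rose for 8 of 10 genes in Ti over naive (7 without naive replicate 3), led by Tnmd (3.99), with sums of 383 to 758 CPM in Ti+I-OG, 515 to 1038 CPM in Ti and 145 to 177 CPM in naive. Among skeletal muscle markers 2 of 12 rose, Tnni1 and Mylpf (1 without naive replicate 3), with sums of 3095 to 5486 CPM in Ti+I-OG, 2008 to 7190 CPM in Ti and 890 to 2574 CPM in naive. For tendon markers each naive library lay below the other 6. Marrow stromal markers rose for 2 of 10, Foxc1 (1.01) and Kitl (0.65), and macrophage markers for 1 of 10, Cd68 (0.58), and none of these passed without naive replicate 3. Macrophage markers summed to 6161 to 9185 CPM in Ti+I-OG, 7806 to 9232 CPM in Ti and 5179 to 6675 CPM in naive, and stromal markers to 1851 to 2114 CPM in Ti+I-OG, 2007 to 2205 CPM in Ti and 1315 to 2202 CPM in naive. No erythroid, neutrophil or B lineage marker passed in Ti over naive. Over all genes 4.05% passed as higher there, and 1.04% without naive replicate 3.

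Compared with naive, Ti+I-OG had 5 of 11 osteocyte, 6 of 16 osteoclast, 7 of 10 tendon, 3 of 12 muscle, 5 of 9 erythroid and 1 of 10 macrophage markers rise, and no stromal, neutrophil or B lineage marker passed. When naive replicate 3 was left out, these counts were 1 osteocyte, 3 osteoclast, 6 tendon, 2 muscle, 1 erythroid and 0 macrophage markers. With the replicate block 7 osteocyte, 7 osteoclast, 8 tendon, 9 muscle, 7 erythroid, 4 macrophage, 3 B lineage and 2 chondrocyte markers rose, and 2 neutrophil markers and 1 osteocyte marker fell. Over all genes 3.84% rose in Ti+I-OG over naive, and 0.577% without naive replicate 3. With the block 12.1% of all genes rose and 1730 of 14211 fell. The blocked chondrocyte count, 2 of 15 tested, is near the 12.1% of all genes. Erythroid markers summed to 169120 to 183624 CPM in Ti+I-OG, 69964 to 102952 CPM in Ti and 29761 to 96505 CPM in naive, so each Ti+I-OG library lay above the other 6. In Ti+I-OG over Ti these lists held 2 calls, the slow muscle genes Myh7 and Tnni1 (log2 fold changes 4.21 and 3.06, adjusted p = 0.00387 and 0.0198 by edgeR).

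The genes whose log2 CPM followed the mean of the 7 standardised genes most closely over the 9 libraries, among 11986 with a mean of at least 1 FPKM, were Olfml3 (Pearson r 0.990), Gdf10 (0.985), Mfap2 (0.981), Sema3d (0.981), Vegfc (0.970), Id4 (0.970), Phex (0.967), Cdh11 (0.966), Col11a1 (0.963) and Kcnk2 (0.961). In Ti over naive 8 of these 10 passed the test as higher, a count that their choice by likeness helps to fix. Over the 8 libraries without naive replicate 3, 4 of the 10 stayed among the closest 10, and the r of all 10 with the mean of the 7 ran from 0.918 to 0.985. For single genes the closest were Bglap2 and Tdrp for Bglap (0.993 and 0.991), Sdc2 and Srpx2 for Ibsp (0.995 and 0.990), Zfp772 and Mfap2 for Alpl (0.990 and 0.962), and Kcnk2 and Col5a2 for Sp7 (both 0.984). Itpr2 and Smad2 came closest to Runx2 (0.963 and 0.957), Kdelr3 and Rnase4 to Pth1r (0.979 and 0.970), and Glis2 and Zfta to Dlx5 (0.973 and 0.963). Id4, Kcnk2, Kdelr3, Rnase4, Glis2, Col10a1 and Myh7 overlap exons of other genes, so their values are uncertain, as is that of Bglap2.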

How the data were processed

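Per the labels' protocols, polyadenylated RNA from Trizol extracts of tibiae was captured on oligo(dT) beads, made into libraries with a kit that keeps no strand, and sequenced by Illumina. The authors deposited 1 table, in which every gene has estimated counts and FPKM for each library. Tools listed in the submitters' processing notes are RSEM, StringTie 1.3.1, fastp, edgeR and DESeq2. Aligner, genome build and annotation: not given in the sources used here. Because of the kit, overlapping antisense genes cannot be told apart.

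Here the deposited estimated counts were rounded and fitted in edgeR 4.0.16 (R 4.3.3) with TMM factors, filterByExpr (14211 of 22183 genes kept, 7 of 7 members) and a quasi-likelihood F test over all 9 libraries with 1 mean per group and 6 residual degrees of freedom. Tests were two-sided, with Benjamini-Hochberg adjusted p over all genes tested and a threshold of 0.05. CPM values are TMM-normalised. Replicate pairs within a group had a chi-square per degree of freedom of 12.9 to 132, more than sampling of reads gives, and all were kept. Floors and depth cover counting error only.

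Alternatives were RLE factors, TMM without globin and mitochondrial genes, DESeq2 1.42.0, limma-voom and limma-trend (limma 3.58.1) on log2(FPKM + 1) or log2(FPKM + 0.1) of the deposited FPKM, other filters, each library left out, the groups compared alone, a replicate block and summed Bglap copies. Named genes were the 7 members, the Bglap copies, up to 4 genes a list with the smallest p among those that passed (in bone lists with none, the 2 lowest p, given as not passed), and the most similar genes by r. The fold of naive replicate 3, Myl3, Col10a1, Col1a1 values, Fgf23, the gene overlaps, the ratios to Runx2, and the lists, correlations and likeness without naive replicate 3 were looked at after seeing values. The members and the gene lists were chosen with earlier results of these data known, so their counts are descriptions. One listed gene that the rule names is not reported here. Between Ti+I-OG and naive all 3 same-numbered pairs had correlated deviations from their group means (r over 0.1), so blocked values stand beside that comparison; no label gives the pairing. The test was tried on simulated counts first.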

Additional observations from a re-analysis of the deposited data

How the results depend on the processing

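No alternative changed the sign of any member's fold change in the 3 comparisons. For Ti+I-OG over Ti, no member passed under any alternative. In Ti over naive, where 3 members and 914 genes passed in edgeR, DESeq2 called 5 members and 1859 genes, log2(FPKM + 1) and log2(FPKM + 0.1) called 2 members each (Ibsp and Alpl) and 518 and 479 genes, and fitting the groups compared alone called 2 members and 357 genes. In Ti+I-OG over naive, with 0 members and 1174 genes, DESeq2 called 1 member and 2440 genes, and the groups alone gave 770 genes. DESeq2 called 16 genes in Ti+I-OG over Ti, against 6, and for any difference 4 members and 2473 genes, against 2 and 820. The cause of these shifts was not tested. With log2(FPKM + 1) and log2(FPKM + 0.1) the median of all genes in Ti+I-OG over naive was -0.10 and -0.16, against 0.03 in edgeR. Of the calls there 16.1% and 16.9% were higher, against 46.4%. In Ti+I-OG over Ti the median with log2(FPKM + 0.1) was -0.11, against 0.00 in edgeR.

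Leaving out 1 library at a time gave 0 to 4 members and 100 to 1999 genes in Ti over naive, 0 to 6 genes in Ti+I-OG over Ti, 0 to 1 member and 59 to 2119 genes in Ti+I-OG over naive, and 0 to 3 members and 139 to 1729 genes for any difference.

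The labels do not say that a replicate number pairs libraries. Same-numbered libraries had correlations of -0.02 to 0.33, of which 7 of 9 were over 0.1 (all 3 only between Ti+I-OG and naive), and 9 of 9 libraries correlated best with their own number, a hint from the data and not the design. With the number as a replicate block, 6 members (all but Runx2) and 2968 genes passed in Ti over naive, 3 members (Ibsp, Sp7 and Pth1r) and 3450 genes in Ti+I-OG over naive, 9 genes and 0 members in Ti+I-OG over Ti, and 4 members and 3313 genes for any difference.

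Of the 10 genes most like the members, 4 remained with a minimum mean of 5 FPKM and 7 with log2(FPKM + 1). With 3 libraries a group, Bglap had the widest intervals of the members.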
